A study of Mus musculus with 33 samples.

Results

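Adult mouse liver and fetal mouse liver at embryonic day E16.5 were compared for the ribose methylation of their ribosomal RNA. The comparison rests on 6 of the 33 libraries of the series, 3 from adult liver and 3 from E16.5 liver, and takes in all 108 sites that the authors listed as methylated. The method was RiboMeth-seq, in which RNA is broken with alkali and the ends of the fragments are counted at every nucleotide. A ribose that carries a methyl group on its 2′ oxygen resists the break, so few fragments begin or end there. The score of a site is 1 minus its read ends over a weighted mean of the read ends at the 6 nucleotides on either side, with values below 0 set to 0. A score near 1 means that nearly all rRNA copies were read as methylated, and 0 that no methylation was measured. Brain, heart, kidney and lung of the same stages gave 24 further libraries, which serve below to show where liver differed from other organs. The labels give tissue and stage only, the series' design text calls the 3 libraries of a group biological replicates, and the sources used here state no strain, sex, adult age or pooling of animals. The files hold rRNA alone, so the tissue labels could not be checked against marker genes.

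Most methyl groups of vertebrate rRNA are placed in the nucleolus by fibrillarin, the methyltransferase of box C/D ribonucleoproteins, and a small nucleolar RNA (snoRNA) in each particle pairs with the rRNA and so picks the nucleotide. Many of these guides are cut from introns of host genes such as Gas5, Snhg1 and Rpl13a. The fetal liver is a main site of blood formation and holds many erythroid precursors beside hepatoblasts, whereas the adult organ consists largely of hepatocytes. The score was measured in bulk tissue, where a different mix of cells and a different level within one kind of cell cannot be told apart.

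Sites are named by their human position, as the authors list them, with SSU for 18S and LSU for 28S rRNA. The nucleotides around the sites with the widest differences are shown 5′ to 3′ as the deposited reference gives them, so that the place of each mark can be seen, with the methylated nucleotide in capitals. The stretch of 28S rRNA at LSU-Gm4593 holds 3 listed sites within 6 nucleotides, LSU-Gm4588, LSU-Um4590 and LSU-Gm4593 in that order, and all 3 are in capitals.
LSU-Gm4588 to LSU-Gm4593: ggaaccgcagGuUcaGacauuuggug
LSU-Am4541: ccuacugaugAuguguuguug
SSU-Um354: uucgaacgucUgcccuaucaa
SSU-Am576: uccacuuuaaAuccuuuaacg
SSU-Am590: uuuaacgaggAuccauuggag
SSU-Gm867: uaggaauaauGgaauaggacc
SSU-Um1442: ucccccaacuUcuuagaggga
The first lies at positions 4261 to 4286 of mouse 28S rRNA and the second at 4214 to 4234. The other stretches, all of 18S rRNA, are centred on mouse positions 356, 578, 592, 869 and 1444.

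The adult liver libraries held 18483795 to 19758071 read ends and the E16.5 liver libraries 1859984 to 8512345, within a range of 463388 to 35156406 over the series. The median weighted flanking count of a listed site was 3088 to 3539 in adult liver and 194 to 1025 in E16.5 liver. Scores of E16.5 liver were also less precise, with a median SD between its 3 libraries of 0.0455, against 0.0122 in adult liver. The median SD from counting alone was 0.0212 in E16.5 liver, against 0.00348 in adult liver. These counting errors assume independent molecules, which amplified reads without molecular identifiers are not. The authors took some scores from 5′ read ends alone to remove an effect of library barcodes. The sites so treated split the 11 groups into 3 sets, which the labels do not give, and adult liver shared its set with adult brain, whereas E16.5 liver shared its set with adult heart and with E16.5 kidney and lung. Stage and library set therefore cannot be told apart within liver, and comparisons within a set are given beside the results. None of the 30 sites called below had been corrected in either liver group.

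Adult liver rRNA was more heavily methylated than E16.5 liver rRNA at 28 sites and less at 2, of 107 sites tested. Limma, fitted to all 33 libraries with Benjamini-Hochberg adjustment, called these 30 sites, or 28% of those tested, at an adjusted p under 0.05; the rises made up 26.2% and the falls 1.87%. The SE printed with a difference comes from this fit and pools the spread within all groups of the series. It can therefore be smaller than the liver libraries alone would give. At 55 sites (51.4%) all 3 adult libraries lay above all 3 E16.5 libraries, and at 3 sites (2.80%) all lay below. Summed over the 107 sites, the scores came to 98.7, 99.8 and 98.6 in the adult liver libraries, against 87.1, 89.4 and 90.3 in the E16.5 liver libraries. The sums of the stages did not overlap. A score of 0.9 or more was reached by 90, 88 and 84 sites in adult liver and by 52, 62 and 62 in E16.5 liver, and 1, 1 and 3 sites stayed under 0.5 in adult liver, against 10, 8 and 7 in E16.5 liver. The median score of a library was on average 0.0543 higher in adult liver. With the library medians set equal, which turns a shared shift into rises and falls by construction, 13 sites were called higher and 10 lower. With every library thinned to the depth of the shallowest, 17 were called higher and 1 lower.

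**Figure D1:**
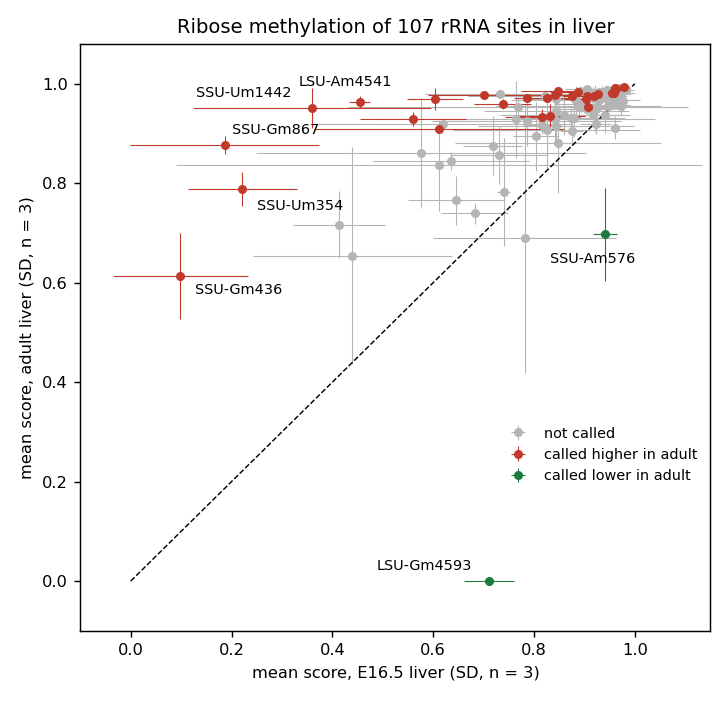
Mean score of each of the 107 sites in adult liver (vertical axis) against E16.5 liver (horizontal axis), both from 0 to 1, with bars for the SD of 3 libraries and a diagonal of equal scores. Most points sit above the diagonal; LSU-Gm4593 (0 in adult liver, 0.711 in E16.5 liver) and SSU-Am576 (0.698 and 0.940) are the called sites below it.

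The site that fell most was LSU-Gm4593, at position 4276 of mouse 28S rRNA, in the group of 3 neighbouring marks printed above. Its guide is SNORD78, a snoRNA of the Gas5 host gene. LSU-Gm4593 scored 0 in all 3 adult liver libraries, against 0.654, 0.745 and 0.732 in the E16.5 liver libraries. By this score adult liver showed no measurable mark at a site that was mostly methylated in fetal liver, and the stages did not overlap. The counts behind the score were large: 3366, 3535 and 6547 read ends at the site in adult liver, or 107%, 102% and 103% of the flanking mean, against 254, 460 and 92 read ends in E16.5 liver, or 34.6%, 25.5% and 26.8%. The difference was −0.711 ± 0.0456 (SE, n = 3 per stage; adjusted p = 1.23e-12, limma). Each kind of read end called it, at −0.778 from 5′ ends and −0.549 from 3′ ends. Because LSU-Gm4588 and LSU-Um4590 lie inside its window, the score was also taken without listed sites, which gave −0.622 (adjusted p = 2.26e-09, limma). With only the 2 nearest neighbours on each side the difference was −0.445 (adjusted p = 2.52e-06, limma). In both of these settings the read ends at the site fell below the flanking mean in all 3 adult libraries. Their scores were then above 0, so the adult score of 0 depends on the window.

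The listed neighbours of LSU-Gm4593 were not called. LSU-Gm4588, 5 nucleotides upstream, scored 0.917, 0.918 and 0.922 in adult liver, against 0.866, 0.634 and 0.361 in E16.5 liver. The adult libraries lay close together and above the scattered E16.5 libraries, and the difference of 0.299 was not called (adjusted p = 0.0674, limma). It was called without the first E16.5 library, at 0.421 (adjusted p = 0.0154, limma), and it was 0.169 without the third. In the barcode-corrected score, which changes the third E16.5 library, it was 0.230 (adjusted p = 0.00258, limma). LSU-Um4590, 3 nucleotides upstream, scored 0.858, 0.974 and 0.851 in adult liver, against 0.772, 0.784 and 0.854 in E16.5 liver, and these ranges overlapped. Both were named for their position after their values had been seen.

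SSU-Am576, at position 578 of 18S rRNA and guided by SNORD93, was the other site called lower. It scored 0.603, 0.698 and 0.791 in adult liver, against 0.968, 0.924 and 0.929 in E16.5 liver. The mark was nearly complete in fetal liver and partial in every adult library, with no overlap. The difference was −0.243 ± 0.0503 (SE, n = 3 per stage; adjusted p = 0.000392, limma). With every library thinned to the depth of the shallowest, it was −0.158 and not called (adjusted p = 0.114, limma). The E16.5 values rest on few read ends, with 4, 37 and 10 at the site and flanking means of 124, 487 and 140.

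The widest rises lay in 18S rRNA. SSU-Gm867, guided by SNORD98, scored 0.860, 0.876 and 0.896 in adult liver, against 0.400, 0.0459 and 0.113 in E16.5 liver. SSU-Um354, guided by SNORD90, scored 0.750, 0.808 and 0.809 in adult liver, against 0.344, 0.140 and 0.180 in E16.5 liver. Both marks were present on a majority of adult copies and on a minority of fetal ones, and neither overlapped between stages. The difference of SSU-Gm867 was 0.691 ± 0.0766 (SE, n = 3 per stage; adjusted p = 4.49e-08, limma). That of SSU-Um354 was 0.567 ± 0.0627 (adjusted p = 4.49e-08, limma). The SDs of SSU-Gm867 were 0.0183 in adult liver and 0.188 in E16.5 liver. The 2 kinds of read end gave unequal values for SSU-Um354, 0.360 from 5′ ends and 0.766 from 3′ ends, since its 3′ score was 0 in all 3 E16.5 libraries.

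SSU-Um1442, guided by SNORD61, and SSU-Gm1447 lie 5 nucleotides apart in the 3′ part of 18S rRNA. SSU-Um1442 scored 0.907, 0.986 and 0.960 in adult liver, against 0.0998, 0.419 and 0.560 in E16.5 liver. SSU-Gm1447 scored 0.915, 0.943 and 0.929 in adult liver, against 0.679, 0.523 and 0.478 in E16.5 liver. Adult liver was nearly fully methylated at both, and the E16.5 libraries were lower and more scattered, most of all at SSU-Um1442. The difference of SSU-Um1442 was 0.592 ± 0.0867 (adjusted p = 5.08e-06, limma) and that of SSU-Gm1447 was 0.369 ± 0.0947 (SE, n = 3 per stage; adjusted p = 0.00404, limma). From 3′ ends alone SSU-Um1442 differed by 0.557 and was not called (adjusted p = 0.102, limma).

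SSU-Am590, guided by SNORD62, lies 14 nucleotides downstream of SSU-Am576 and moved the opposite way. It scored 0.989, 0.945 and 0.973 in adult liver, against 0.547, 0.608 and 0.658 in E16.5 liver. In the adult libraries 1.10%, 5.46% and 2.74% of the flanking mean remained at the site, against 45.3%, 39.2% and 34.2% in the E16.5 libraries. The stages were far apart relative to the spread within each, with a difference of 0.365 ± 0.0332 (SE, n = 3 per stage; adjusted p = 1.32e-09, limma). It was called from 5′ ends, at 0.297, and from 3′ ends, at 0.494.

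SSU-Gm436, guided by SNORD100, depended on the kind of read end. It scored 0.628, 0.520 and 0.690 in adult liver, against 0.250, 0.0451 and 0 in E16.5 liver, a difference of 0.514 ± 0.103 (SE, n = 3 per stage; adjusted p = 0.000269, limma). From 5′ ends the scores were 0.655, 0.550 and 0.752 in adult liver, against 0.0586, 0 and 0 in E16.5 liver. From 3′ ends they were 0.547, 0.440 and 0.580 in adult liver, against 0.652, 0.441 and 0.473 in E16.5 liver. The difference was therefore carried by 5′ ends alone, at 0.633 (adjusted p = 8.41e-06, limma), and was −4.47e-05 from 3′ ends.

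The most sharply resolved rise was in 28S rRNA, at LSU-Am4541, mouse position 4224. This site scored 0.973, 0.951 and 0.965 in adult liver, against 0.430, 0.469 and 0.464 in E16.5 liver. Each stage formed a tight group, with SDs of 0.0116 and 0.0211, and the difference was 0.508 ± 0.0260 (SE, n = 3 per stage; adjusted p = 1.25e-14, limma). The next nucleotide, the unlisted uridine at position 4225, held 0.928, 1.39 and 1.25 times the flanking mean of read ends in adult liver, against 3.58, 2.97 and 3.23 times in E16.5 liver. That neighbour is counted in the flank of LSU-Am4541, where its high count raises the E16.5 flank and with it the E16.5 score. With the 2 nearest neighbours on each side alone as the flank, the difference at LSU-Am4541 was 0.334 (adjusted p = 3.61e-14, limma). That setting gives the uridine more weight and so does not remove it. A score without the uridine was not taken. In the other groups of the same library set the uridine stood at 1.56 to 2.36 times the flanking mean in E16.5 kidney and lung. In adult heart, also of that set, it stood at 2.14 to 2.29 times, and all these values lay below E16.5 liver. In E9.5 heads, which belong to another set, it stood at 2.49 to 3.16 times and overlapped E16.5 liver.

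**Figure D2:**
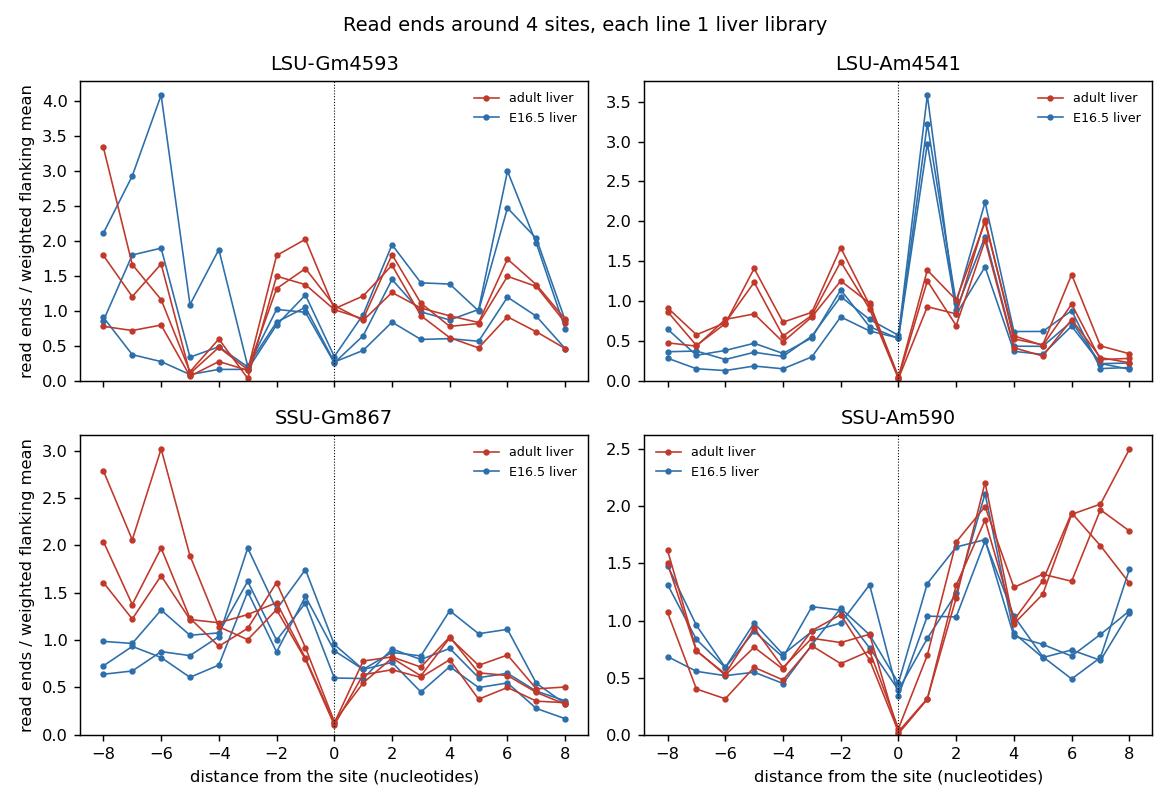
Read ends over the weighted flanking mean (vertical axis) by distance in nucleotides from 4 sites (horizontal axis), 1 line per liver library. At LSU-Gm4593 the adult libraries stand at 1.07, 1.02 and 1.03 and the E16.5 libraries at 0.346, 0.255 and 0.268, whereas at LSU-Am4541, SSU-Gm867 and SSU-Am590 the adult libraries are the low ones.

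Other called rises were smaller or less even. 5.8S-Um14 scored 0.907, 0.907 and 0.915 in adult liver, against 0.379, 0.583 and 0.873 in E16.5 liver, a difference of 0.298 (adjusted p = 0.0165, limma). The third E16.5 library was close to the adult ones, and the call was lost without the first E16.5 library, at 0.181 (adjusted p = 0.160, limma), or the second, at 0.284 (adjusted p = 0.0538, limma). Its 3′ score was 1 in all 6 libraries, so 5′ ends alone carried it. Fragments of 20 to 40 nucleotides cannot end at position 14 of 5.8S rRNA, so that 3′ score could not have differed. SSU-Cm797 scored 0.981, 0.978 and 0.974 in adult liver, against 0.805, 0.713 and 0.584 in E16.5 liver, and differed by 0.277 (adjusted p = 0.00586, limma). LSU-Gm2411 scored 0.970, 0.948 and 0.960 in adult liver, against 0.803, 0.705 and 0.706 in E16.5 liver, and differed by 0.221 (adjusted p = 2.9e-05, limma). SSU-Um121 was tight within each stage, with 0.979, 0.970 and 0.967 in adult liver, against 0.762, 0.784 and 0.811 in E16.5 liver, and differed by 0.186 (adjusted p = 2.66e-10, limma).

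The remaining 17 called rises began from E16.5 means of 0.816 or more, so that little of the scale was left to gain. SSU-Um1804, LSU-Um2402, LSU-Cm2352, SSU-Um428 and LSU-Gm1303 gained 0.146, 0.139, 0.136, 0.117 and 0.104. LSU-Cm1327, LSU-Am2388, SSU-Gm601, LSU-Gm4464, SSU-Am512, LSU-Um4468 and LSU-Cm2848 gained 0.0988, 0.0959, 0.0711, 0.0679, 0.0564, 0.0539 and 0.0471. LSU-Um4197, LSU-Cm3680, LSU-Gm4198, LSU-Am2350 and LSU-Gm2351 gained 0.0303 down to 0.0153. In every one of these sites the 3 adult libraries lay above the 3 E16.5 libraries. LSU-Am2350, LSU-Gm2351 and LSU-Cm2352 are 3 adjacent nucleotides, as LSU-Um4197 and LSU-Gm4198 are 2, so their windows share read ends. Many of the small gains depended on single libraries. Without the first E16.5 library the call was lost at SSU-Um428 (adjusted p = 0.0883, limma), and without the third at SSU-Am512 (0.0649), LSU-Um4197 (0.0676), LSU-Cm3680 (0.0907) and LSU-Gm4198 (0.0868). LSU-Gm1303, LSU-Gm4464, LSU-Um4468, LSU-Cm2848, LSU-Am2350 and LSU-Gm2351 each lost it in 2 or more of the 6 fits that left out 1 liver library, with adjusted p between 0.0517 and 0.165 in limma. SSU-Gm601 was still called without the third E16.5 library, at 0.0462.

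**Figure D3:**
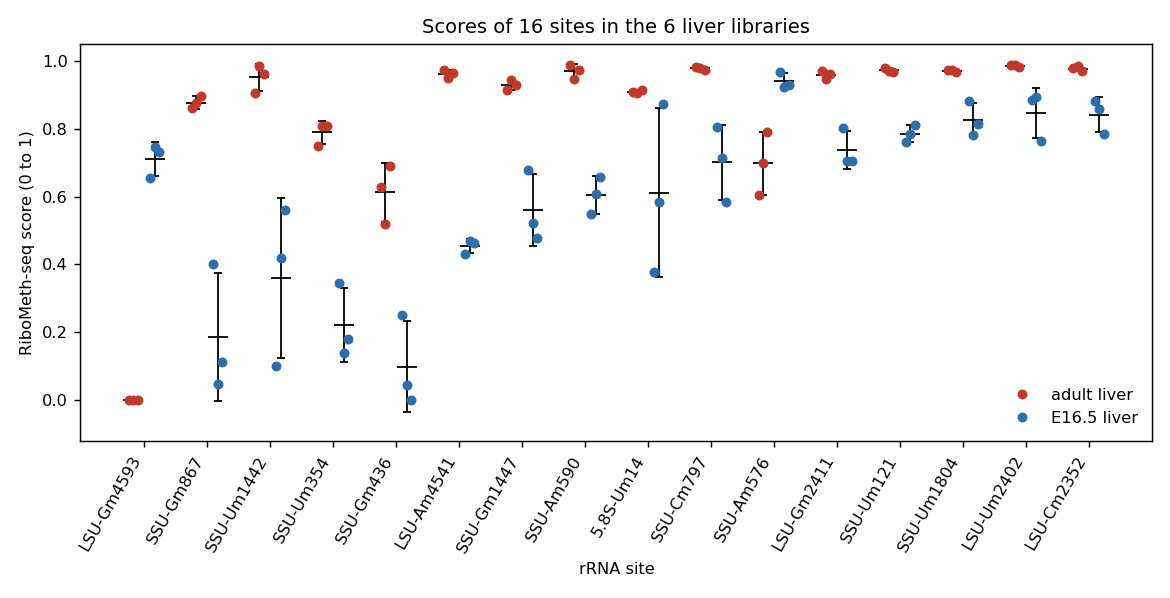
Score from 0 to 1 (vertical axis) of 16 called sites (horizontal axis) in each of the 3 adult liver and 3 E16.5 liver libraries, each point 1 library, with a bar at the mean and its SD. The adult points lie near 1 at most sites, but at 0 for LSU-Gm4593 and at 0.603 to 0.791 for SSU-Am576, and the E16.5 points scatter widely at 5.8S-Um14 (0.379 to 0.873).

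Of the 77 sites that were not called, some differed widely but unevenly and are named here after their values were seen. SSU-Cm1272 scored 0.668, 0.688 and 0.795 in adult liver, against 0.343, 0.378 and 0.516 in E16.5 liver, and its difference of 0.304 narrowly missed the threshold (adjusted p = 0.0602, limma). It was called among the 6 liver libraries alone (adjusted p = 0.0338, limma), a fit that lost the call at other sites, named below. LSU-Am3804, guided by SNORD30, scored 0.731, 0.898 and 0.878 in adult liver, against 0.0138, 0.843 and 0.978 in E16.5 liver. A single E16.5 library made its difference of 0.224, which was −0.0749 without that library, one of those whose score the authors replaced. LSU-Am3764 was the only uncalled site with all adult libraries below all E16.5 libraries, at −0.0487 (adjusted p = 0.0575, limma), and from 5′ ends alone it was 0.0150. SSU-Cm1703, in the decoding region of the small subunit and guided by SNORD43, differed by −0.00334 (adjusted p = 0.912, limma).

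Over all 107 tested sites 26.2% rose and 1.87% fell, and no molecule or stretch was tested against these shares. Grouped by molecule, the 40 tested sites of 18S rRNA gave 12 rises, 1 fall and 27 without a call, with a median difference of 0.0729. The 65 tested sites of 28S rRNA gave 15 rises, 1 fall and 49 without a call, with a median of 0.0471, beside 0.0570 over all 107 sites. Of the 2 sites of 5.8S rRNA 1 rose. Equal library medians gave 9 rises and 2 falls in 18S rRNA but 4 rises and 8 falls in 28S rRNA, and no call in 5.8S rRNA. With 28S rRNA divided into 3 stretches of equal length, all 3 adult libraries lay above all 3 E16.5 libraries at 15 of the 17 sites of the middle stretch, 7 of them called higher, beside 51.4% over all sites. In the 5′ stretch they lay above at 2 of 10 sites, and 2 were called higher. In the 3′ stretch they lay above at 17 of 38 sites, and 6 were called higher and 1 lower. In 18S rRNA, divided likewise, 7 of 20 sites of the 5′ stretch rose and 1 fell, 2 of 8 rose in the middle and 3 of 12 in the 3′ stretch.

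The counts by class below stand beside 26.2% of all 107 tested sites called higher and 1.87% called lower. With equal medians 13 of all sites rose and 10 fell. No class was tested against these shares. By nucleotide, 9 of 20 methylated uridines rose and none of the other 11 was called lower, with a median difference of 0.0661. Under equal medians 5 uridines rose and 0 fell. Of 32 guanosines 9 rose and 1 fell, of 22 cytidines 5 rose, and of 33 adenosines 5 rose and 1 fell. With equal medians the guanosines gave 4 rises and 5 falls, the cytidines 2 rises and 0 falls, and the adenosines 2 rises and 5 falls. Of 22 sites with another listed site within 2 nucleotides 8 rose, and of the other 85 sites 20 rose and 2 fell. Sites were also sorted by their mean score in the 27 libraries that are not from liver. Of 11 sites below 0.75 there, 3 rose and 1 fell in liver, with a median difference of 0.215. From 0.75 to 0.9, 7 of 27 rose and 1 fell, with a median of 0.126. At 0.9 or above, 18 of 69 rose, with a median of 0.0368, and under equal medians 5 rose and 8 fell.

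Among 10 sites with guides from Gas5, LSU-Gm4593 fell and LSU-Am2350, guided by SNORD76, rose by 0.0231 (adjusted p = 0.0466, limma), while 8 were not called. LSU-Cm4032, guided by SNORD75, scored 0.906, 0.793 and 0.871 in adult liver, against 0.827, 0.632 and 0.732 in E16.5 liver, with overlapping ranges. The median difference of the Gas5 group was 0.0170, and with equal library medians 0 rose and 3 fell, LSU-Am2350 turning to −0.0312. Limma called 0 of the 7 sites guided from Snhg1 and 0 of the 5 from Rpl13a, beside 28% of all 107 tested sites. In each group 1 site had an unadjusted p under 0.05. The medians were 0.0368 and 0.0337, beside 0.0570 over all sites. Whether any host group departs from the share over all sites was not tested. No site of the 3 host groups other than LSU-Gm4593 was called lower, beside 1.87% of all tested sites. The abundance of the snoRNAs was not measured.

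The next question was whether liver differed from other organs in how its methylation changed. Against the mean adult minus E16.5 difference of brain, heart, kidney and lung, limma called 13 of 107 sites (12.1%), 12 with a more positive difference in liver (11.2%) and 1 with a more negative one (0.935%). Taken alone, the liver difference was called at 30 sites (28%), against 8 for brain (7.48%; 5.61% higher), 8 for heart (7.48%; 5.61% higher), 12 for kidney (11.2%) and 17 for lung (15.9%). Of the 30 liver sites, 25 had a larger difference in liver than in each of the other 4 organs, 12 were called in none of them and 3 in all 4. Because the 30 sites were picked by their liver difference, that choice itself favours larger values in liver. The like counts over all 107 sites were not taken. Of the 12 sites called in no other organ, 4 also differed from the mean of the others. With every library thinned to the shallowest, 9 sites were called in the comparison with the others, all among the 13.

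SSU-Um1442 differed by 0.592 in liver, against 0.0145 for brain, −0.0129 for heart, 0.246 for kidney and 0.171 for lung. Liver exceeded the mean of the others by 0.487 ± 0.0969 (SE; adjusted p = 0.00063, limma). SSU-Gm867 differed by 0.691 in liver, against 0.0941 for brain, 0.195 for heart, 0.319 for kidney and 0.233 for lung, an excess of 0.481 ± 0.0857 (adjusted p = 0.000166, limma). At both sites the liver difference was the widest of the 5, although from 3′ ends alone the excess of SSU-Um1442 was 0.421 and not called (adjusted p = 0.778, limma). LSU-Am4541 was raised in every organ, by 0.508 in liver, against 0.0949 (brain), 0.0873 (heart), 0.143 (kidney) and 0.127 (lung), an excess of 0.395 ± 0.0290 (adjusted p = 5.03e-11, limma). SSU-Am590 differed by 0.365 in liver, against 0.0239 for brain, 0.0646 for heart, 0.0900 for kidney and 0.0486 for lung. Its excess was 0.308 ± 0.0372 (adjusted p = 6.74e-07, limma). It was called in no other organ alone, but the mean rise of the others, 0.0568, was called (adjusted p = 0.0111, limma).

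LSU-Gm4593 fell in all 5 organs, with differences of −0.711 for liver, −0.412 for brain, −0.379 for heart, −0.320 for kidney and −0.383 for lung. The liver difference minus the mean of the others was −0.337 ± 0.0510 (adjusted p = 1.71e-05, limma). That call was lost with the 2 nearest neighbours as the flank, at −0.168 (adjusted p = 0.131, limma), and from 3′ ends alone, at −0.236 (adjusted p = 0.228, limma). The adult means were 0 (liver), 0 (brain), 0.0664 (heart), 0.217 (kidney) and 0.114 (lung), and the E16.5 means were 0.711, 0.412, 0.446, 0.537 and 0.497 in the same order. Liver thus joined the lowest adult level with the highest E16.5 level, and a score of 0 sets a floor that brain shared. SSU-Am576 differed by −0.243 in liver and by a mean of −0.224 in the others, and its excess in liver, −0.0182, was not called (adjusted p = 0.944, limma).

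Smaller excesses were called at SSU-Um354, LSU-Um2402, SSU-Um121, LSU-Gm2411, LSU-Cm2352, SSU-Gm601, LSU-Cm2848 and LSU-Cm1327. SSU-Um354 differed by 0.567 in liver and by 0.180 to 0.404 in the others, an excess of 0.234 ± 0.0701 (adjusted p = 0.0256, limma). That excess was called in 9 of 19 other settings, among them the weights given below, in which the difference of heart is added. It was 0.0941 from 5′ ends alone (adjusted p = 0.345, limma) and 0.201 from 3′ ends alone (adjusted p = 0.292, limma), and its call was also lost with equal medians, thinning, 2 neighbours on each side or the arcsine transformation. Leaving out adult library 2 or 3 or E16.5 library 2 or 3 lost it too, with adjusted p from 0.0710 to 0.113 in limma. LSU-Gm2411 and LSU-Cm1327 lost theirs without any 1 of the 3 adult libraries or of E16.5 libraries 2 and 3, with adjusted p from 0.0707 to 0.127, and LSU-Cm2848 without the second E16.5 library (adjusted p = 0.0590, limma). From 3′ ends alone the excess was called at none of these 8 sites but SSU-Gm601, and with equal medians at LSU-Um2402 and SSU-Um121 alone. Thinning lost it at LSU-Gm2411, LSU-Cm2848 and LSU-Cm1327 as well, and 5′ ends alone at LSU-Cm1327. LSU-Um2402 differed by 0.139 in liver and by at most 0.0292 in any other organ, and SSU-Gm601 by 0.0711 in liver and at most 0.0209 elsewhere. SSU-Gm436, SSU-Gm1447, 5.8S-Um14 and SSU-Um1804, which rose in liver, rose in the mean of the other organs too, by 0.273, 0.244, 0.226 and 0.0913, and their liver excess was not called.

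**Figure D4:**
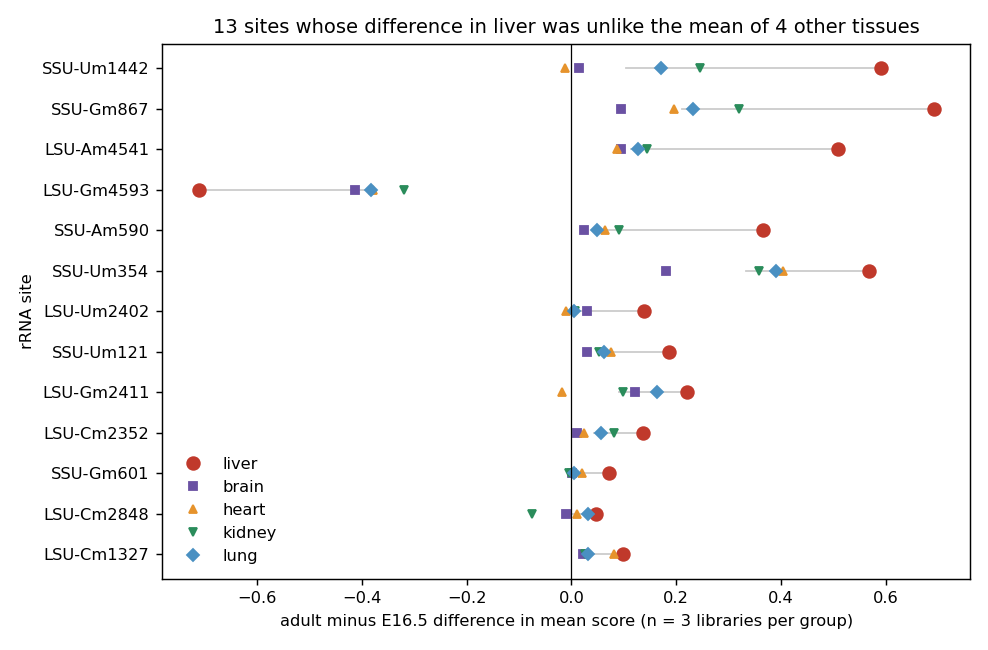
Adult minus E16.5 difference in mean score (horizontal axis, 3 libraries per group) of the 13 sites (vertical axis) whose difference in liver was unlike the mean of the others, for liver and for brain, heart, kidney and lung, with a grey line joining liver to the mean of the others. At LSU-Am4541 liver stands at 0.508 and the others at 0.0873 to 0.143, and at LSU-Gm4593 liver stands at −0.711 and the others at −0.412 to −0.320.

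Comparisons that avoid the library sets were made in 2 ways. Weighting the 5 organs so that any additive difference between sets cancels left 12 sites called (11.2%), 11 of them among the 13. In these weights the differences of brain, kidney and lung were subtracted from that of liver, but the difference of heart was added. The weighted value is therefore not a plain excess of liver, and a rise in heart enlarges it. It was 0.390 ± 0.0400 at LSU-Am4541 (adjusted p = 5.96e-08, limma) and 0.338 ± 0.0512 at SSU-Am590 (adjusted p = 2.31e-05, limma). At LSU-Gm4593 it was −0.312 ± 0.0703 (adjusted p = 0.00342, limma). LSU-Um2402 and LSU-Gm2411 were no longer called, at 0.102 and 0.0262. Each stage was also compared within its own set. E16.5 liver differed from the mean of E16.5 kidney and lung at 10 sites (9.35%), 1 higher (0.935%) and 9 lower (8.41%). Among the lower ones, LSU-Am4541 averaged 0.454 in E16.5 liver, against 0.824 in E16.5 kidney and 0.782 in E16.5 lung. SSU-Um1442 averaged 0.360 in E16.5 liver, against 0.723 in E16.5 kidney and 0.774 in E16.5 lung, and SSU-Gm867 averaged 0.186 in E16.5 liver, against 0.526 in E16.5 kidney and 0.554 in E16.5 lung. SSU-Am590 averaged 0.604 in E16.5 liver, against 0.865 in E16.5 kidney and 0.888 in E16.5 lung. SSU-Um354, SSU-Um121, LSU-Um2402, SSU-Gm601 and LSU-Cm2352 were the other lower sites, with differences of −0.337 to −0.0605. LSU-Gm4593 was the 1 higher, by 0.193 ± 0.0395 (adjusted p = 0.000649, limma).

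Adult liver and adult brain, which share the other set, differed at 0 sites (0%) in limma, with 1 site at an unadjusted p under 0.05. LSU-Am4541 averaged 0.963 in adult liver and 0.950 in adult brain, SSU-Am590 0.969 in adult liver and 0.971 in adult brain, and SSU-Um1442 0.951 in adult liver and 0.955 in adult brain. SSU-Gm867 averaged 0.877 in adult liver and 0.941 in adult brain, and SSU-Um354 0.789 in adult liver and 0.954 in adult brain. Whether the within-set differences of the 2 stages differ from each other was not tested.

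Read ends of both kinds called 15 of the 30 liver sites. These include LSU-Gm4593, SSU-Gm867, SSU-Um354, LSU-Am4541, SSU-Gm1447, SSU-Am590, SSU-Am576 and LSU-Gm2411. From 5′ ends alone 62 sites were called, 60 higher and 2 lower, and from 3′ ends alone 16, with 13 higher and 3 lower. SSU-Gm436 had a difference of 0.633 from 5′ ends but near 0 from 3′ ends. 5.8S-Um14 had 0.300 from 5′ ends, while its 3′ ends could show no difference, given its place near the 5′ end of the molecule.

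**Figure D5:**
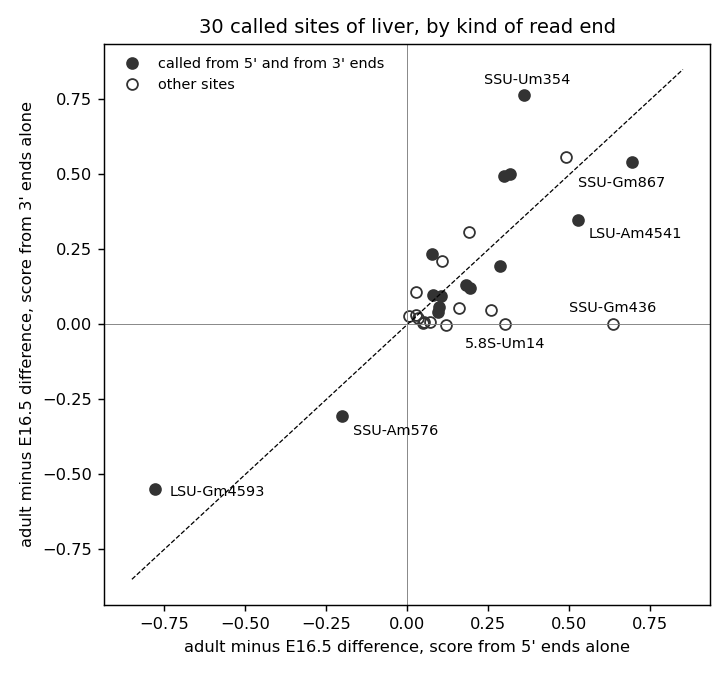
Adult minus E16.5 difference of the 30 called liver sites in the score from 3′ ends alone (vertical axis) against that from 5′ ends alone (horizontal axis), with a diagonal of equal values. LSU-Gm4593 lies low on both axes (−0.778 from 5′ ends, −0.549 from 3′ ends) and SSU-Gm867 high on both (0.692 and 0.543), while SSU-Gm436 (0.633 from 5′ ends) and 5.8S-Um14 (0.300) lie at or near 0 on the vertical axis.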

How the data were processed

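Whole-cell RNA of mouse tissue was partly broken with alkali, fragments of 20 to 40 nucleotides were purified, and libraries were sequenced on an Ion Proton, per the labels' protocols. The tools listed in the submitters' processing notes are Bowtie2 2.3.4.1 and cutadapt 2.0, with no role stated. The sources used here do not state the rRNA reference, its build or the mapping settings. The authors deposited, for each of 6878 rRNA nucleotides and each library, counts of 5′ and 3′ read ends and the score as a fraction. Their Overview table of group means, after barcode correction, holds values other than per-library scores and was used as the authors' means only.

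All 11 sheets carried adult lung column headers, so the group was taken from the sheet's name. The adult liver sheet equalled the authors' adult liver means at 103 of 108 sites and the E16.5 liver sheet its own at 91, within 1e-05, and any other group at 2 or fewer. The score was rebuilt from the counts with the 6 neighbours on each side weighted 1 to 0.5, and differed from the deposited one by at most 5e-10. Replicate libraries of liver were no duplicates: chi-square over its degrees of freedom was 92.9 to 321. A site was tested if its weighted flanking count was at least 10 in every library, which removed LSU-Cm3848.

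Scores entered limma 3.58.1 (R 4.3.3) as 1 model over 33 libraries with a mean per group and a variance trend. Tests were two-sided, with Benjamini-Hochberg adjustment over 107 sites, and called at an adjusted p under 0.05. The fit and the score were tested on simulated data. Other steps used Python 3.11.15, numpy 2.4.6, pandas 2.3.3 and matplotlib 3.10.9. Named were all sites called lower, up to 25 called sites whose stages did not overlap, with the widest differences, and up to 15 in the contrast with other organs. The files name no guides: those of 29 sites come from general knowledge and form the host gene lists. The members, lists and tests were chosen with earlier results of these data known. Alternatives changed the kind of read end, the window, depth, coverage minimum, scaling, transformation, variance trend, barcode correction, replicate block and the libraries included.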

Additional observations from a re-analysis of the deposited data

Results flagged for a closer look

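At 13 sites the adult minus E16.5 difference of liver was unlike the mean difference of brain, heart, kidney and lung in a test of that difference itself, by limma with adjustment over 107 sites. The liver excess was 0.487 at SSU-Um1442, 0.481 at SSU-Gm867, 0.395 at LSU-Am4541, −0.337 at LSU-Gm4593, 0.308 at SSU-Am590 and 0.234 at SSU-Um354. Smaller excesses were 0.131 at LSU-Um2402, 0.131 at SSU-Um121, 0.130 at LSU-Gm2411 and 0.0926 at LSU-Cm2352. At SSU-Gm601, LSU-Cm2848 and LSU-Cm1327 they were 0.0656, 0.0584 and 0.0582. In 19 other settings of this comparison, LSU-Am4541, SSU-Am590 and SSU-Gm867 were called in all, and no site of the 13 changed direction. LSU-Cm2848 differed by 0.0471 in liver, against −0.0757 in kidney and −0.0112 in brain.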

How the results depend on the processing

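For the liver comparison, which called 30 sites, 5′ ends alone called 62 (60 higher, 2 lower), 3′ ends alone 16 (13 higher, 3 lower) and thinned libraries 18 (17 higher, 1 lower). Leaving out 1 liver library called 25 to 28. In a fit to the 6 liver libraries alone the call was lost at 5.8S-Um14, SSU-Um428, SSU-Am512, SSU-Gm601, LSU-Am2388, LSU-Gm1303 and LSU-Gm4464. That fit also lost it at LSU-Cm2848, LSU-Um4197, LSU-Gm4198, LSU-Cm3680, LSU-Am2350 and LSU-Gm2351. The other called sites kept their call. Equal library medians called 23, with 13 higher and 10 lower. In the comparison with the other organs, which called 13 sites, 5′ ends called 33, 3′ ends 4 and equal medians 8 (6 higher, 2 lower), and leaving out 1 liver library 10 to 16. A fit with the replicate number as a block called 40 sites in liver and 14 against the other organs. Deviations of same-numbered liver libraries correlated at 0.471, 0.0664 and −0.0915, and of differently numbered ones at −0.470 to 0.348. The labels give no pairing by number. At SSU-Am1383 and LSU-Am3804 the authors' means were rebuilt by replacing the score of library 1 in both liver stages. Whether the number carries a barcode effect was not tested. Of the 30 sites, 8 were called under all 20 alternatives: LSU-Am4541, LSU-Gm2411, LSU-Gm4593, LSU-Um2402, SSU-Am590, SSU-Gm1447, SSU-Gm867 and SSU-Um354. Equal medians turned LSU-Am2350 to −0.0312, LSU-Gm2351 to −0.0391, LSU-Cm2848 to −0.00724, LSU-Cm3680 to −0.0267, LSU-Um4197 to −0.0241, LSU-Gm4198 to −0.0269 and LSU-Um4468 to −0.000447, by construction. From 3′ ends SSU-Gm436 was −4.47e-05 and LSU-Um4468 −0.00275, from 5′ ends LSU-Am3764 was 0.0150, and thinning turned LSU-Gm2351 to −0.00229. Uncalled SSU-Cm1703 was 0.0042 with 2 neighbours and −0.0305 to 0.0175 without 1 library, with 0.0167 and 0.00301 among them, and LSU-Am3804 −0.0749 to 0.407, the negative value without the first E16.5 library; apart from the equal medians, the cause was not tested. Without the 17 sites that the authors corrected in either liver group, an alternative added after seeing the data, 36 sites were called. E16.5 liver was the shallower stage, and its SD exceeded 0.1 at 27 sites, against 5 in adult liver. The highest SD from counting alone was 0.0577 in E16.5 liver, and the cause of the wider spread was not tested.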

Other observations

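The higher scores of adult liver did not extend to nucleotides outside the authors' list. Of 6044 unlisted nucleotides, all 3 adult libraries lay above all 3 E16.5 libraries at 6.11% and below at 11.4%. Of the 107 listed sites, 51.4% lay above and 2.80% below. The median unlisted score was 0.102 in adult liver and 0.148 in E16.5 liver, close to the floor of 0. Ties at that floor count as neither above nor below, so the shares of unlisted and listed nucleotides are not fully alike. The median difference was −0.0131 at unlisted nucleotides and 0.0570 at listed sites. Leaving out nucleotides within 6 of a listed site gave 6.61% above and 11.8% below. At 299 unlisted nucleotides whose mean liver score was at least 0.5, 7.36% lay above and 23.4% below. These counts describe the 6 libraries, and whether any unlisted nucleotide is methylated was not tested.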
